A study of Mus musculus with 140 samples.

Results

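The Period genes *Per1*, *Per2* and *Per3* were followed in mouse liver, as the 3 rows with these symbols among the 10489 genes that the count tables of 3 genotypes share. All 3 genes were present in each table and passed the filter on low counts, a mean of at least 1 count over the libraries, as did 10488 of the 10489 genes. Liver RNA was measured by bulk MARS-seq in 140 libraries, 46 of *Per1*,*2*-/- mice, 46 of *Bmal1*-/- mice and 48 of WT mice, collected every 4 hours over 48 hours at 12 circadian times (CT0 to CT44). Each time point held 4 libraries, except that *Per1*,*2*-/- had 3 at CT8 and at CT20, and *Bmal1*-/- had 3 at CT16 and at CT20. All mice were males of 3 months, labelled as strain C57BL/6, kept for at least 14 days in 12 hours of light and 12 hours of dark and then sampled in constant dark with food at will. *Per1*,*2*-/- mice lack functional *Per1* and *Per2* and keep *Per3*, and *Bmal1*-/- mice carry the B6.129-Arntl tm1Bra allele from the Jackson Laboratory. Both are whole-body mutants, so the liver was not the only tissue that carried them.

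Period proteins belong to the negative limb of the mammalian clock. BMAL1 and CLOCK bind E-boxes and switch on the Period and Cryptochrome genes, whose proteins gather in a complex with casein kinase 1, return to the nucleus and block BMAL1 and CLOCK until they are degraded. PER1 and PER2 carry this feedback, while PER3 is known as a paralog whose loss alters the clock in most tissues little. *Per1* and *Per2* also respond to signals such as glucocorticoids and CREB, and *Per3* has been described as a target of the D-box factors DBP, TEF and HLF.

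A MARS-seq count is 1 unique molecule tagged at the 3′ end, so counts do not grow with transcript length. The tags of the paralogs are set side by side here as tags. Whether the 3′ ends of the 3 genes are captured equally well was not examined. The level used here is CPM, the library's counts scaled to a common total and by TMM, edgeR's correction for differences in RNA composition. Totals per library were 1442278 to 5643470 counts in *Per1*,*2*-/-, 1924755 to 5325256 in *Bmal1*-/- and 1678097 to 4364594 in WT. Each genotype came in a table of its own, so genotype and any difference between sequencing runs cannot be told apart. The labels do not say that the lettered libraries of a time point came from separate animals, so p-values measure the spread between libraries, part of which may be technical. In bulk liver, fewer cells of a type and less RNA per cell cannot be told apart. The summed level of 6 hepatocyte markers was 58126 to 98903 CPM in *Per1*,*2*-/-, 35095 to 55893 in *Bmal1*-/- and 56953 to 88372 in WT, so *Bmal1*-/- libraries lay below every WT library. The 5 macrophage markers had medians of 260, 76.9 and 236 summed CPM in *Per1*,*2*-/-, *Bmal1*-/- and WT libraries. Those of the 4 bile duct markers were 107, 102 and 52.6 summed CPM in the same order, higher in both mutants, and those of the 5 endothelial markers 113, 100.1 and 116. The stellate markers had medians of 123 and 71.6 summed CPM in *Per1*,*2*-/- and *Bmal1*-/- (4 genes) and 57.8 in WT (3 genes, without *Lrat*). Marker sums are per library total, without TMM, and the part of any marker list in the results was not tested.

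*Per1* lies on chromosome 11 of GRCm38 from 69095217 to 69109960 on the plus strand. *Per2* lies on chromosome 1 from 91415982 to 91459324 and *Per3* on chromosome 4 from 151003652 to 151044665, both on the minus strand. In the GENCODE annotation the gene *Camta1* spans *Per3* on the same strand, with none of its exons in the 27 distinct *Per3* exon intervals. The promoters in RefSeq (GRCm38.p6, 250 bases before the start site and 50 from it on) are shown for the starts that hold a clock motif, the first of 2 starts of *Per1* and the start of *Per3*. No promoter of *Per2* was examined here. Capitals mark the E-box CACGTG in *Per1*, which BMAL1 and CLOCK bind, and the D-box TTATGTAA in *Per3*, which the DBP family and NFIL3 bind.
Per1, chr11:69098699-69098998, plus strand: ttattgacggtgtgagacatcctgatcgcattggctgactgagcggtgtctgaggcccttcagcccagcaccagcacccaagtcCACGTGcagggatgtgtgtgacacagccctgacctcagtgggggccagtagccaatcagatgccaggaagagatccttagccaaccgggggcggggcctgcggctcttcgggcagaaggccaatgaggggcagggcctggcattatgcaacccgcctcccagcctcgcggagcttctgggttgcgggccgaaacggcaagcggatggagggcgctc
Per3, chr4:151044616-151044915, minus strand: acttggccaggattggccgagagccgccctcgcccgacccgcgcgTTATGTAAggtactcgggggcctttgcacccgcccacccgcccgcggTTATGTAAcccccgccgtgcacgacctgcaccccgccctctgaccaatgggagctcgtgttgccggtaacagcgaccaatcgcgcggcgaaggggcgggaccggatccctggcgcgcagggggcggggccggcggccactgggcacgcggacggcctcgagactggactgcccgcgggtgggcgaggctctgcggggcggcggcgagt
Promoters were searched on both strands for the E-box CACGTG, the variant CACGTT, the cyclic AMP element TGACGTCA, the D-boxes TTATGTAA and TTACGTAA, and the GC box GGGCGG. The *Per1* E-box lay at -166 to -161 from the start site. The second *Per1* start, 69100152, held none of the first 4 motifs in its window, and GGGCGG once. *Per3* held TTATGTAA at -205 to -198 and again at -158 to -151, beside 7 copies of GGGCGG, and no CACGTG. Of 32817 promoters of the same length, 7.15% held CACGTG and 35.6% held GGGCGG, whereas 1.05% held one of the D-boxes and 8 (0.0244%) held at least 2. A match is a description of the letters in these windows, not of a bound site.

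In WT liver the 3 genes were strongly rhythmic, with troughs near the start of the subjective day and peaks around the start of the subjective night. *Per1* ranged from 1.49 to 69.1 CPM over 48 WT libraries (median 17.5), with a mean of 3.60 ± 1.61 at CT4 and 56.4 ± 12.0 at CT36 (SD, n = 4). *Per2* ranged from 0.658 to 40.0 CPM (median 12.4), with 1.63 ± 0.787 at CT4 and 32.6 ± 5.42 at CT40. *Per3* ranged from 0 to 24.0 CPM (median 5.56), with 0.805 ± 0.764 at CT24, where 1 library held no tag, and 17.3 ± 6.20 at CT36. The low and the high time points did not overlap for any of the 3 genes. They were picked as the lowest and highest means of each gene, which favours such a gap. The share of all genes with such a gap was not counted. In edgeR's quasi-likelihood fit of 36 genotype-by-time means, a 24-hour cosine was called for 3 of 3 genes, against 38% of all genes tested (Benjamini-Hochberg adjusted p under 0.05). The fitted ratio of peak to trough was 10.8-fold for *Per1* (95% interval 7.52 to 15.6, adjusted p = 4.88e-22), 11.8-fold for *Per2* (8.82 to 15.8, adjusted p = 4.72e-33) and 18.8-fold for *Per3* (13.0 to 27.3, adjusted p = 1.06e-32). By adjusted p these were the genes ranked 58, 12 and 13 of 10488. A 24-hour cosine held 72.9% of the variance of log2 normalized counts of *Per1*, 85.7% of *Per2* and 84.9% of *Per3*, and a 16-hour cosine held at most 0.356%.

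The paralogs split in time into an early pair and a late gene. The fitted WT peak lay at 12.9 ± 0.279 h for *Per1*, 13.1 ± 0.196 h for *Per3* and 15.7 ± 0.177 h for *Per2* (± SE). *Per2* therefore peaked 2.83 ± 0.331 h after *Per1* and 2.63 ± 0.265 h after *Per3*, while *Per3* and *Per1* were 0.20 ± 0.34 h apart, within the error. *Per2* was also the last on each day alone. On the first day (CT0 to CT20) *Per2* peaked at 15.9 h, *Per3* at 13.4 h and *Per1* at 12.8 h, and on the second (CT24 to CT44) at 15.5 h, 12.8 h and 13.0 h. At CT8 *Per1* already stood at 38.8 ± 8.52 CPM while *Per2* was at 9.76 ± 2.01 CPM, and at CT32 they stood at 33.0 ± 7.78 and 6.55 ± 1.93 CPM (SD, n = 4). At CT20 *Per2* was still at 22.1 ± 2.09 CPM while the *Per1* libraries held 7.61 to 13.9 CPM and *Per3* was at 5.14 ± 1.16 CPM. At CT44, the same phase of the second day, the order was the other way round, with *Per1* at 21.1 ± 7.16 CPM and *Per2* at 15.8 ± 6.16 CPM. The ratio of *Per2* to *Per1* within each WT library cycled by 1.16 (log2 amplitude, permutation p = 1e-05, the smallest that 100000 permutations give, adjusted p = 4.5e-05 over 9 ratio tests). That of *Per3* to *Per2* cycled by 1.08 (adjusted p = 4.5e-05). The ratio of *Per3* to *Per1* had an amplitude of 0.11 in WT (permutation p = 0.787, adjusted p = 0.807), so no 24-hour difference between these genes was detected.

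**Figure D1:**
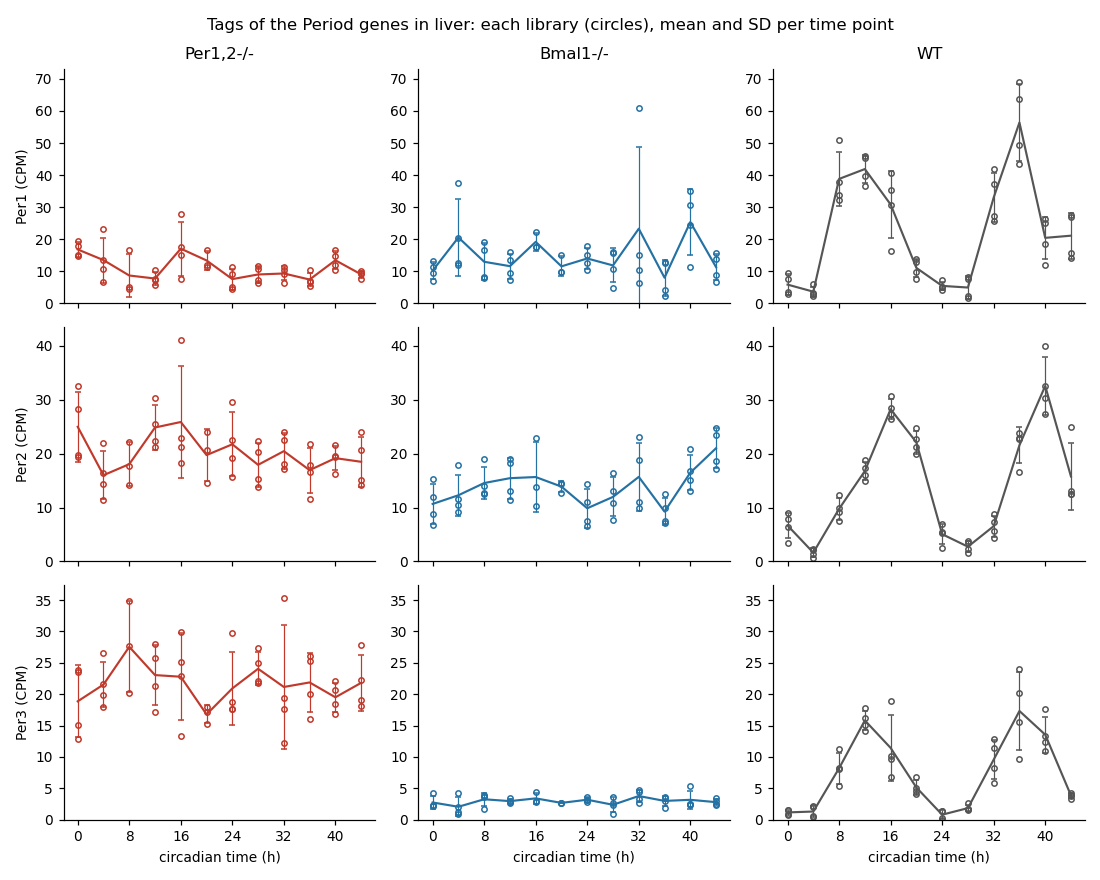
CPM of *Per1*, *Per2* and *Per3* (rows) against circadian time in hours, in *Per1*,*2*-/- (left), *Bmal1*-/- (middle) and WT (right) liver. Circles are single libraries, lines join the means and bars are the SD, cut off at 0. The WT panels peak at CT36 or CT40 on the second day, the mutant panels are flat in comparison, and *Per3* lies between 12.2 and 35.3 CPM in *Per1*,*2*-/- but between 0.856 and 5.32 CPM in *Bmal1*-/-.

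*Per3*, the paralog that was not targeted, had a higher mean in *Per1*,*2*-/- than in WT liver at every time point. In *Bmal1*-/- liver its level over the 12 time points was lower, though the mean was above that of WT at 4 of them. It ranged from 12.2 to 35.3 CPM in *Per1*,*2*-/- libraries (median 21.0), from 0.856 to 5.32 CPM in *Bmal1*-/- libraries (median 2.84) and from 0 to 24.0 CPM in WT libraries (median 5.56). No *Per1*,*2*-/- library overlapped any *Bmal1*-/- library, which held for 2.69% of all genes. Of the 46 *Per1*,*2*-/- libraries, 14 lay above the highest WT library and 37 above the highest WT time point mean, 17.3 CPM at CT36. The mean was higher in *Per1*,*2*-/- than in WT at 12 of 12 time points, as for 10.9% of all genes. The arithmetic mean of *Per1*,*2*-/- libraries was 1.25 times the WT maximum over time points and 26.9 times the WT minimum. *Per3* in *Bmal1*-/- stood at 0.171 times the WT maximum and 3.67 times the WT minimum. Over the 12 time points, equally weighted on the log2 scale, the level was 2.16 ± 0.10 higher in *Per1*,*2*-/- than in WT (4.47-fold, adjusted p = 3.07e-43, edgeR) a change above that of 99.8% of all genes. It was -0.73 ± 0.12 in *Bmal1*-/- against WT (adjusted p = 1.18e-07) and 2.89 ± 0.10 in *Per1*,*2*-/- against *Bmal1*-/- (7.39-fold, adjusted p = 4.92e-56).

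The tags of the inactivated genes were still counted in *Per1*,*2*-/-. The sources used here do not give which part of each gene was deleted, and a 3′ tag outside that part does not test the genotype. *Per1* had 4.47 to 27.9 CPM in *Per1*,*2*-/- libraries (median 10.3), 2.31 to 61.0 CPM in *Bmal1*-/- libraries (median 12.8) and 1.49 to 69.1 CPM in WT libraries (median 17.5). *Per2* had 11.4 to 41.1 CPM in *Per1*,*2*-/- libraries (median 20.1), 6.49 to 24.8 CPM in *Bmal1*-/- libraries (median 13.1) and 0.658 to 40.0 CPM in WT libraries (median 12.4). Both genes overlapped between all genotypes when the times were pooled. The level of *Per1* was -0.58 ± 0.13 (log2) in *Per1*,*2*-/- against WT (adjusted p = 5.25e-05), whereas that of *Per2* was 0.99 ± 0.08 (1.98-fold, adjusted p = 1.06e-20). All 3 members were thus called in this comparison, 2 higher and 1 lower, where 64.7% of all genes were called, 34.9% higher and 29.8% lower. Against WT, *Bmal1*-/- liver had *Per2* at 0.42 ± 0.09 (adjusted p = 6.74e-06) and *Per1* at -0.18 ± 0.13, which did not pass the test (adjusted p = 0.194). Of the 3 members 2 were called there, 1 higher and 1 lower, against 74.3% of all genes, 35.3% higher and 38.9% lower. Between the mutants, *Per1* was at -0.40 ± 0.12 (adjusted p = 0.00273) and *Per2* at 0.57 ± 0.07 (adjusted p = 3.42e-11) in *Per1*,*2*-/- against *Bmal1*-/-. All 3 members were called in that comparison as well, 2 higher and 1 lower, against 73.2% of all genes, 39.9% higher and 33.4% lower.

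The order of the genotypes thus differed from paralog to paralog. *Per3* was highest in *Per1*,*2*-/-, then WT, then *Bmal1*-/-, with each step past the test. *Per2* was highest in *Per1*,*2*-/-, and *Per1* was lowest there. A strongly cycling WT gene has a higher arithmetic than logarithmic mean, so the weighting of times matters for all 3 genes. With 1 arithmetic mean per genotype, *Per2* in *Bmal1*-/- was at -0.04 against WT (adjusted p = 0.828, edgeR), *Per1* in *Bmal1*-/- was at -0.63 against WT (adjusted p = 0.00182), and *Per1* in *Per1*,*2*-/- was at -0.42 against *Bmal1*-/- (adjusted p = 0.0516). The directions for *Per3* held under both weightings, but the sizes did not. Its ratio of arithmetic means to WT was 2.89 in *Per1*,*2*-/- and 0.394 in *Bmal1*-/-. The *Arntl* gene, which encodes BMAL1, likewise still gave tags in *Bmal1*-/-, at 4.99 to 15.6 CPM.

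Neither mutant kept the WT rhythm of any of the 3 genes. The 24-hour term differed from WT in *Per1*,*2*-/- for all 3 genes, with adjusted p of 1.89e-14 for *Per1*, 1.62e-22 for *Per2* and 4.46e-25 for *Per3* (edgeR), against 26% of all genes called. It differed from WT in *Bmal1*-/- as well, with adjusted p of 1.74e-12, 2.08e-19 and 1.96e-16 in the same gene order, against 19.5% of all genes. In *Per1*,*2*-/- the fitted 24-hour folds were 1.40 for *Per1* (95% interval 0.974 to 2.01), 1.17 for *Per2* (0.965 to 1.43) and 1.23 for *Per3* (1.01 to 1.51). None of these was called (adjusted p = 0.559, 0.644 and 0.459), where 2.04% of all genes were. The intervals are symmetric about the fitted log2 amplitude, which cannot fall below 0. They are thus approximate for weak rhythms, and an interval above 1 is not a call. In *Bmal1*-/- the folds were 1.12 for *Per1* (0.804 to 1.56), 1.32 for *Per2* (1.07 to 1.64) and 1.34 for *Per3* (0.968 to 1.84), and none was called (adjusted p = 0.982, 0.652 and 0.841) with 0.00953% of all genes called. JTK_CYCLE, harmonic regression and DESeq2 called none of the 3 genes at 24 hours in either mutant. At an unadjusted p under 0.05 the quasi-likelihood test of edgeR passed 1 of these 6 terms, *Per2* in *Bmal1*-/-. The 24-hour term of *Per1*,*2*-/- against *Bmal1*-/- was called for none of the 3 (adjusted p = 0.667, 0.861 and 0.672), against 0.162% of all genes, which does not show that the residual profiles were alike.

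Periods other than 24 hours are a subject of the study, and the Period genes were examined at 16 hours. The 16-hour fold in *Per1*,*2*-/- was 1.53 for *Per1* (95% interval 1.08 to 2.16, adjusted p = 0.325, edgeR), 1.27 for *Per2* (1.04 to 1.54, adjusted p = 0.340) and 1.16 for *Per3* (0.961 to 1.41, adjusted p = 0.647). None passed, where 3.09% of all genes did, and before adjustment none did either. The intervals above 1 for *Per1* and *Per2* are approximate for such weak rhythms and do not show one. In WT none was called at 16 hours (adjusted p = 0.835, 0.904 and 0.969), against 0.0858% of all genes. The 16-hour folds in *Bmal1*-/- were 1.07 for *Per1*, 1.35 for *Per2* and 1.05 for *Per3*, with adjusted p of 0.998, 0.749 and 0.999 and 0.00953% of all genes called. Before adjustment *Per2* was the one member that passed there. Of 6 period lengths from 12 to 32 hours, a cosine held the most variance of *Per1* and *Per3* in *Per1*,*2*-/- at 20 hours (22.0% and 10.8%) and of *Per2* at 16 hours (10.1%). The highest value in *Bmal1*-/- was that of *Per2* at 32 hours, 22.9%, close to its 22.0% at 12 hours. *Per1* in *Bmal1*-/- held the most at 12 hours, 15.9%, and no 12-hour term was tested. These shares are far below the 72.9% to 85.7% of the WT genes at 24 hours.

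A test for any change over the 12 time points, of whatever shape, called none of the 3 genes in *Per1*,*2*-/- (18.1% of all genes), 2 in *Bmal1*-/- (1.28% of all genes) and all 3 in WT (29.8% of all genes). In *Per1*,*2*-/- the adjusted p was 0.0679 for *Per1*, 0.169 for *Per2* and 0.787 for *Per3* (edgeR). With the replicate letter as a block *Per1* passed there, at an adjusted p of 0.0488. The *Bmal1*-/- calls were *Per1* (adjusted p = 0.0393) and *Per2* (adjusted p = 0.0368), with *Per3* at 0.912. *Per1* in *Bmal1*-/- had 11.4 to 34.9 CPM at CT40 and 2.31 to 13.0 CPM at CT36, and *Per2* averaged 21.0 ± 3.70 CPM at CT44 and 9.26 ± 2.54 CPM at CT36 (SD, n = 4). Neither call was stable. Without replicate A, B or C the *Per1* value was 0.324, 0.127 and 0.269, whereas without D it was 0.00625 (adjusted p, edgeR, with fewer libraries). Without A, B, C or D the *Per2* value was 0.0630, 0.171, 0.340 and 0.150 (adjusted p, edgeR). One *Bmal1*-/- library at CT32 stood at 61.0 CPM of *Per1*, while the others of that time point held 6.37 to 15.2 CPM.

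Set against WT at each phase, *Per3* in *Per1*,*2*-/- was higher at 6 of 6 phases, whereas 15.3% to 22.4% of all genes were called higher at a phase. Those shares are of single phases, and the share called higher at all 6 was not counted. Each phase joins the 2 time points 24 hours apart. In the order of the phases, 32.5%, 34.5%, 35.7%, 41%, 29.6% and 30.9% of all genes were called in *Per1*,*2*-/- against WT. Those called higher made up 16.6%, 17.8%, 19.2%, 22.4%, 15.3% and 15.4%, and those called lower 15.9%, 16.7%, 16.6%, 18.7%, 14.4% and 15.5%. At CT0/CT24, the WT trough, *Per3* had 12.9 to 29.7 CPM in *Per1*,*2*-/- and 0 to 1.58 CPM in WT, a log2 difference of 4.35 ± 0.35 (adjusted p = 1.61e-27, edgeR). At CT4/CT28 it had 18.0 to 27.3 CPM in *Per1*,*2*-/- and 0.360 to 2.64 CPM in WT (3.91 ± 0.31). The WT libraries held 0 to 5 *Per3* counts at CT0/CT24 and 1 to 7 at CT4/CT28, so the sizes of both differences rest on few WT tags. At CT12/CT36, near the WT peak, *Per3* still had 16.0 to 28.0 CPM in *Per1*,*2*-/- and 9.63 to 24.0 CPM in WT (0.43 ± 0.17, adjusted p = 0.0350). That smallest difference is the one phase call that leaving out replicates ended, with adjusted p of 0.0731, 0.283 and 0.147 without A, C or D. The *Per3* libraries did not overlap at CT0/CT24, CT4/CT28 and CT20/CT44, where 8.44%, 7% and 7.69% of all genes did not.

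*Per2* in *Per1*,*2*-/- was higher than WT around the WT trough and not around its peak. It was raised by 1.96 ± 0.21 (log2) at CT0/CT24, 3.02 ± 0.29 at CT4/CT28 and 1.26 ± 0.20 at CT8/CT32 (adjusted p = 2.25e-14, 3.07e-19 and 1.74e-07, edgeR). At CT4/CT28 the libraries held 11.4 to 22.3 CPM in *Per1*,*2*-/- and 0.658 to 3.70 CPM in WT. The libraries of the 3 phases did not overlap, as for 6.96% of all genes at CT8/CT32. At CT16/CT40 *Per2* was lower, with 16.2 to 41.1 CPM in *Per1*,*2*-/- against 26.4 to 40.0 CPM in WT (-0.44 ± 0.16, adjusted p = 0.0314). That call was lost without replicate A, B or C (adjusted p = 0.0679, 0.10 and 0.175). At CT12/CT36 and CT20/CT44 *Per2* was not called, at 0.11 ± 0.17 and 0.02 ± 0.18.

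*Per1* in *Per1*,*2*-/- crossed the WT profile. It was lower than WT at CT8/CT32 (-1.92 ± 0.30, adjusted p = 8.75e-08, edgeR) and CT12/CT36 (-2.69 ± 0.29, adjusted p = 8.23e-14). At CT12/CT36 the libraries held 5.49 to 10.3 CPM in *Per1*,*2*-/- and 36.7 to 69.1 CPM in WT, without overlap, as for 10% of all genes, and they did not overlap at CT8/CT32 either. It was higher at CT4/CT28, with 6.35 to 23.1 CPM in *Per1*,*2*-/- and 1.49 to 8.23 CPM in WT (1.42 ± 0.37, adjusted p = 0.000831). The calls at CT0/CT24 (0.97 ± 0.34, adjusted p = 0.0193) and CT16/CT40 (-0.75 ± 0.27, adjusted p = 0.0261) each failed without single replicates. The first had an adjusted p of 0.0560 without A and 0.121 without B, and the second 0.106, 0.0777 and 0.0648 without A, C and D. *Per1* was not called at CT20/CT44 (-0.47 ± 0.31, adjusted p = 0.253).

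In *Bmal1*-/- liver the time point means of *Per3* stayed between 2.07 and 3.78 CPM, while those of *Per1* and *Per2* stayed between 7.96 and 25.3 CPM. *Per3* was lower than WT at CT8/CT32 (-1.33 ± 0.23), CT12/CT36 (-2.47 ± 0.23), CT16/CT40 (-1.91 ± 0.24) and CT20/CT44 (-0.69 ± 0.28), 4 of 6 phases. In the order of the phases, 45.6%, 45.8%, 47.8%, 49.6%, 42.2% and 43.9% of all genes were called in *Bmal1*-/- against WT. Those called higher made up 22.4%, 22.7%, 23.3%, 24.6%, 20.7% and 21.6%, and those called lower 23.2%, 23.2%, 24.5%, 25%, 21.5% and 22.3%. At CT12/CT36 it had 1.91 to 3.63 CPM in *Bmal1*-/- and 9.63 to 24.0 CPM in WT (adjusted p = 2.69e-18, edgeR), without overlap, as for 16.3% of all genes. The call at CT20/CT44 (adjusted p = 0.0334) was lost without replicate B or D (adjusted p = 0.10 and 0.201). At CT0/CT24 *Per3* was higher, with 2.14 to 4.25 CPM in *Bmal1*-/- and 0 to 1.58 CPM in WT (1.58 ± 0.38, adjusted p = 0.000137), and at CT4/CT28 it was not called (0.45 ± 0.37, adjusted p = 0.328). Its libraries did not overlap at CT0/CT24, CT8/CT32 and CT16/CT40 either, where 16%, 13.4% and 12.3% of all genes did not. *Per2* was higher at CT0/CT24 (0.80 ± 0.22), CT4/CT28 (2.54 ± 0.30) and CT8/CT32 (0.92 ± 0.20) and lower at CT12/CT36 (-0.69 ± 0.18) and CT16/CT40 (-0.91 ± 0.18). Of these, the one at CT0/CT24 had an adjusted p of 0.124 without replicate A. *Per1* was higher at CT0/CT24 (1.07 ± 0.34) and CT4/CT28 (1.91 ± 0.37) and lower at CT8/CT32 (-1.05 ± 0.26) and CT12/CT36 (-2.36 ± 0.28). Both comparisons share the WT libraries, so the 2 mutants' profiles against WT are not independent of each other.

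**Figure D2:**
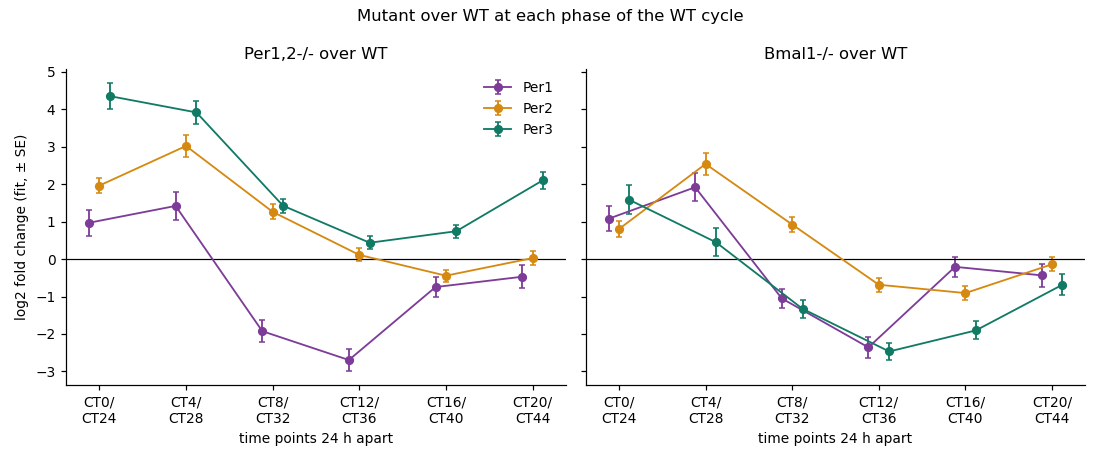
Log2 fold change of *Per1*,*2*-/- over WT (left) and *Bmal1*-/- over WT (right) at 6 phases, each the pair of time points 24 hours apart, for *Per1*, *Per2* and *Per3*. Points are values of the fit and bars their SE. *Per3* lies above 0 at every phase in *Per1*,*2*-/-, from 0.43 to 4.35, and below 0 from CT8/CT32 to CT20/CT44 in *Bmal1*-/-.

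Ratios within libraries put the paralogs in a different balance in each genotype. *Per3* over *Per1*, as log2 of the ratio of CPM + 1, averaged 0.99 in *Per1*,*2*-/- and -1.43 in WT, a difference of 2.42. *Per3* over *Per2* averaged 0.09 in *Per1*,*2*-/- and -0.88 in WT, a difference of 0.97, and *Per2* over *Per1* averaged 0.90 in *Per1*,*2*-/- and -0.55 in WT, a difference of 1.45. Each of these had a permutation p of 1e-05 (adjusted p = 1.29e-05 over 9 tests), the smallest that can be reached. Averaged over the time points, *Per3* was thus the least abundant of the 3 tags in WT and stood level with *Per2* in *Per1*,*2*-/-. The WT order depended on time, as at CT32 the mean of *Per3* (9.57 CPM) was above that of *Per2* (6.55 CPM). In *Bmal1*-/- against WT, *Per3* over *Per2* averaged -1.88 and -0.88 (adjusted p = 1.29e-05), and *Per2* over *Per1* 0.03 and -0.55 (adjusted p = 0.00101, permutation tests). *Per3* over *Per1* averaged -1.86 in *Bmal1*-/- and -1.43 in WT (adjusted p = 0.0173), a difference of -0.42 that was -0.29 without replicate B (adjusted p = 0.129) and -0.40 without C (adjusted p = 0.0565). Between the mutants all 3 ratios differed (adjusted p = 1.29e-05), by 2.84 for *Per3* over *Per1*, 1.97 for *Per3* over *Per2* and 0.87 for *Per2* over *Per1*, in *Per1*,*2*-/- minus *Bmal1*-/-. No ratio cycled at 24 hours in a mutant past adjustment. The closest was *Per3* over *Per1* in *Per1*,*2*-/-, with an amplitude of 0.40 (permutation p = 0.0237, adjusted p = 0.0711), which passed without replicate C (0.47, adjusted p = 0.0361).

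**Figure D3:**
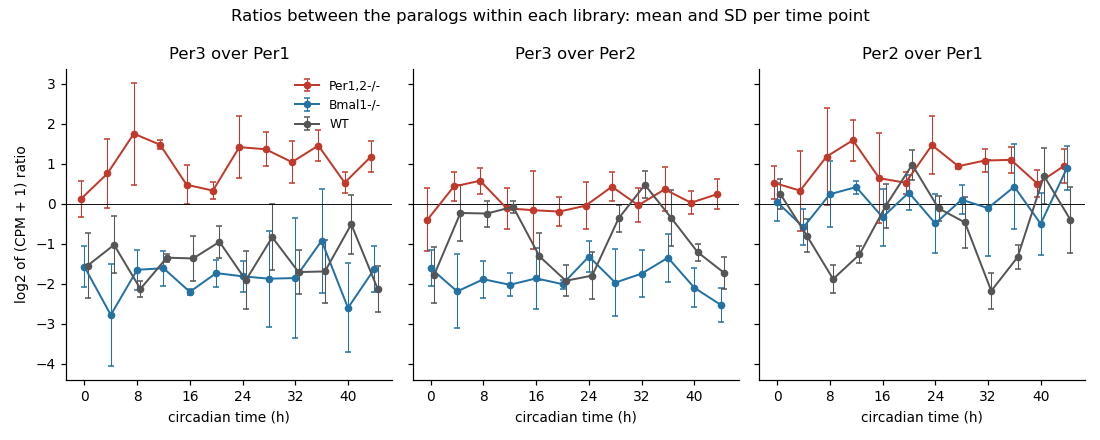
Log2 ratios of CPM + 1 between paralogs within each library against circadian time in hours, in *Per1*,*2*-/- (red), *Bmal1*-/- (blue) and WT (grey). Points are time point means and bars the SD. *Per3* over *Per2* and *Per2* over *Per1* swing in WT with amplitudes of 1.08 and 1.16, and the red line of *Per3* over *Per1* lies around 0.99.

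On the log2 scale *Per1* had the largest spread of the paralogs between replicates in each genotype. As a coefficient of variation of CPM this held in both mutants but not in WT, where *Per3* had 43.6% and *Per1* 37.0%, with 35.4% and 18.4% from counting alone. The SD of log2(CPM + 1) within time points was 0.48 in *Per1*,*2*-/-, 0.70 in *Bmal1*-/- and 0.50 in WT for *Per1*, where counting alone would give 0.22, 0.20 and 0.23. For *Per2* it was 0.33 in *Per1*,*2*-/-, 0.39 in *Bmal1*-/- and 0.35 in WT, with 0.17, 0.20 and 0.26 from counting. For *Per3* it was 0.35 in *Per1*,*2*-/-, 0.37 in *Bmal1*-/- and 0.42 in WT, with 0.16, 0.34 and 0.32 from counting. The spread of *Per3* in *Bmal1*-/-, at a median of 11 counts per library, was thus close to that of counting. *Per1* had a median of 46.5 counts in the same libraries, and its spread was more than counting gives. These spreads are descriptions and were not tested against each other. Deviations of paralogs from their time point means were not correlated past adjustment in any genotype. Of 9 correlations, the largest was that of *Per1* and *Per3* in *Bmal1*-/- (r = -0.41, permutation p = 0.0203, rho = -0.40, permutation p = 0.0233, adjusted p = 0.183, n = 46), with r = -0.42 after the 2 libraries farthest from the median of *Per1* were left out. *Per1* and *Per2* in WT had r = 0.37 (permutation p = 0.0435, rho = 0.35, permutation p = 0.0465, adjusted p = 0.196, n = 48), and r = 0.33 without the 2 farthest.

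**Figure D4:**
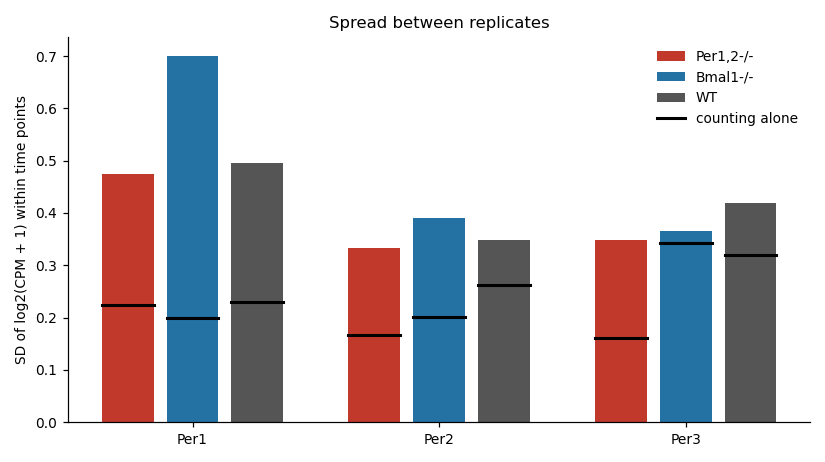
SD of log2(CPM + 1) between replicates within time points for each gene, in *Per1*,*2*-/- (red), *Bmal1*-/- (blue) and WT (grey), with black lines at the SD that counting alone gives. The *Per1* bars reach 0.48 to 0.70 against 0.20 to 0.23 for counting, and the *Per3* bar of *Bmal1*-/- (0.37) is near its line (0.34).

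Genes whose time point means followed each paralog most closely differed as well. Over the 36 genotype-by-time groups, among 7358 genes with a mean of at least 5 CPM, *Per3* was nearest to *Ndel1*, a dynein regulator (Pearson r = 0.94), *Ngef* (0.92), *Zc3h11a* (0.90), *Wee1*, a kinase that holds cells out of mitosis (0.90), and *Pigp* (0.90). *Per2* was nearest to *Tsku* (0.81), the deubiquitinase gene *Usp2* (0.79), *Glyctk* (0.79), *Pfkfb2* (0.78) and *Chordc1* (0.78). The first neighbour of *Per1* was less close than those of *Per2* and *Per3*, with *Rapgef1* at 0.78, then *Crcp* (0.74), *Esrra* (0.73), *Klf13* (0.73) and *Aqp11* (0.73). *Per3* and *Per2* had r = 0.66 over these groups, *Per1* and *Per2* 0.43, and *Per1* and *Per3* 0.25. Over the 12 WT time points alone *Tef*, a D-box activator, was first for both *Per1* (0.95) and *Per3* (0.99). *Per1* and *Per3* had r = 0.92 over the WT time points. These correlations are descriptions over groups that share libraries and any difference between runs.

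Among the partners of the PER proteins, both cryptochrome genes cycled in WT, and their log2 levels were higher in both mutants. Of a list of 20 genes for PER partners, kinases and turnover, 17 were tested, of which none had a 24-hour rhythm in *Per1*,*2*-/-, none in *Bmal1*-/- and 4 in WT, beside 2.04%, 0.00953% and 38% of all genes. The rhythm differed from WT for 6 of 17 in *Per1*,*2*-/- and 4 of 17 in *Bmal1*-/-, beside 26% and 19.5% of all genes. *Cry1*, which encodes a cryptochrome that represses BMAL1 and CLOCK with PER, had 10.5 to 27.7 CPM in *Per1*,*2*-/- (median 17.7), 48.9 to 103 CPM in *Bmal1*-/- (median 71.5) and 3.27 to 43.6 CPM in WT (median 18.1). Its level in *Bmal1*-/- was 2.16 (log2) above WT (adjusted p = 5.11e-65, edgeR), the opposite direction to *Per3*, and in *Per1*,*2*-/- 0.16 above WT (adjusted p = 0.0120). The rise of 0.16 is small beside the 7.11-fold WT cycle of *Cry1*, and the *Per1*,*2*-/- median lay below that of WT. The direction with 1 arithmetic mean per genotype was not examined for *Cry1*. *Cry2*, the other cryptochrome, had a level 0.54 above WT in *Per1*,*2*-/- and 0.70 above WT in *Bmal1*-/-. *Ppp1ca*, a catalytic subunit of protein phosphatase 1, was at -0.29 in *Per1*,*2*-/- and 0.44 in *Bmal1*-/-, and *Wdr5*, a component of chromatin complexes found with PER, at 0.06 and 0.01, neither past the test. The level was called higher for 6 and lower for 7 of the 17 in *Per1*,*2*-/-, with a median of 0.03 beside 0.03 over all genes, and for 8 and 7 in *Bmal1*-/-, with a median of 0.01 beside -0.03. Of all genes, 34.9% were called higher and 29.8% lower in *Per1*,*2*-/-, and 35.3% higher and 38.9% lower in *Bmal1*-/-.

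Among other clock transcription factors, *Dbp* had the order of *Per3* over the genotypes in its log2 level. *Tef*, which encodes a related D-box activator, did not. Of the other D-box genes tested, the level of *Hlf* was called against WT in *Bmal1*-/- but not in *Per1*,*2*-/-. That of *Nfil3* was called in both mutants. The order of *Hlf* and *Nfil3* over the genotypes is not given here. Of a list of 14, 11 were tested, and none had a 24-hour rhythm in *Per1*,*2*-/-, none in *Bmal1*-/- and 10 in WT, beside 2.04%, 0.00953% and 38% of all genes. The rhythm differed from WT for 9 of 11 in each mutant, beside 26% of all genes in *Per1*,*2*-/- and 19.5% in *Bmal1*-/-. *Dbp* had 60.4 to 226 CPM in *Per1*,*2*-/- (median 157), 9.05 to 21.1 CPM in *Bmal1*-/- (median 14.1) and 4.64 to 523 CPM in WT (median 57.3). Its level was 1.24 (log2) above WT in *Per1*,*2*-/- and -2.21 in *Bmal1*-/- (adjusted p = 6.45e-31 and 3.94e-48, edgeR). This level weights times equally on the log2 scale, and *Dbp* cycled 78.7-fold in WT. Whether *Dbp* keeps this order with 1 arithmetic mean per genotype was not examined. *Tef* had 153 to 248 CPM in *Per1*,*2*-/- (median 201), 88.7 to 146 CPM in *Bmal1*-/- (median 110) and 26.8 to 228 CPM in WT (median 96.7), and its levels were 1.23 above WT in *Per1*,*2*-/- and 0.38 above WT in *Bmal1*-/- (adjusted p = 2.29e-56 and 2.96e-17). *Tef* was thus higher in both mutants, whereas *Per3* was higher in one and lower in the other. *Nr1d1*, the gene of the repressor REV-ERBα, was at -0.48 in *Per1*,*2*-/- and -4.45 in *Bmal1*-/- against WT. *Arntl* was at -0.53 in *Per1*,*2*-/- and, outside the test, at 0.14 in *Bmal1*-/- (adjusted p = 0.106). The level was called higher for 5 and lower for 3 of the 11 in *Per1*,*2*-/-, with a median of 0.38 beside 0.03 over all genes, and for 4 and 4 in *Bmal1*-/-, with a median of 0.06 beside -0.03. Beside these 8 of 11 in each mutant, 64.7% of all genes were called in *Per1*,*2*-/- and 74.3% in *Bmal1*-/-.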

How the data were processed

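Liver RNA of 140 libraries was sequenced by MARS-seq, which counts unique molecules at 3′ ends. Per the submitters' processing notes and the study's methods, the authors used bcl2fastq, cutadapt, STAR, mm10 and HTSeq, and counted on RefSeq genes widened by 1000 bases at the 5′ and 100 bases at the 3′ end. Whether strand was used is not given in the sources used here. The deposited raw counts, one table per genotype, were the input of every count test. The deposited normalized values of *Per1*,*2*-/- and WT, a signal obtained by the authors as counts divided by DESeq2 size factors, were used for JTK_CYCLE and harmonic regression. For *Bmal1*-/- raw counts alone were used, scaled here.

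Counts were fitted with edgeR 4.0.16 (TMM, quasi-likelihood F-test, 36 genotype-by-time means) in R 4.3.3, over 10488 genes with a mean count of at least 1, and called at a Benjamini-Hochberg adjusted p under 0.05. Levels weight the time points equally, and rhythms are cosine contrasts. CPM ratios between paralogs, with 1 added, were tested by 100000 permutations in Python 3.11.15 (numpy 2.4.6, scipy 1.17.1). DESeq2 1.42.0 and the other alternatives are given in the closing section. Totals per library ran from 1442278 to 5643470 counts. No libraries of a group were duplicates, the lowest chi-square per degree of freedom being 3.12. Correlated deviations did not pair the replicate letters. The statistics were tested on simulated data. Named genes were the 3 members, their 5 nearest genes by correlation, and the 4 genes of each list with the smallest adjusted p for the difference of the 24-hour rhythm between *Per1*,*2*-/- and WT. The members and lists were chosen with earlier results of these data known. One gene that this rule names is not reported here.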

Additional observations from a re-analysis of the deposited data

Results flagged for a closer look

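Of 96 sets of 4 libraries, one for each gene and time point with 4 libraries, 7 held a library far from the others on the scale of log2(CPM + 1), or 7.29%, where chance gives about 1 in 20. *Per3* gave 5 of them. In *Per1*,*2*-/- at CT24, replicate C was at 29.7 CPM and the others at 17.6 to 18.7 CPM. In *Bmal1*-/-, replicate B at CT0 was at 4.25 CPM with the others at 2.14 to 2.42 CPM, replicate C at CT8 at 1.72 CPM with the others at 3.62 to 3.87 CPM, and replicate D at CT40 at 5.32 CPM with the others at 2.42 to 2.53 CPM. In WT at CT28, replicate C was at 2.64 CPM and the others at 1.49 to 1.65 CPM. *Per2* in WT gave the remaining ones, replicate B at CT36 with 16.7 CPM beside 22.8 to 23.9 CPM and replicate D at CT44 with 25.0 CPM beside 12.4 to 13.0 CPM.

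The 24-hour rhythm differed between genotypes for each of the 3 genes. In *Per1*,*2*-/- against WT the adjusted p of edgeR's quasi-likelihood test was 1.89e-14 for *Per1*, 1.62e-22 for *Per2* and 4.46e-25 for *Per3*. In *Bmal1*-/- against WT it was 1.74e-12 for *Per1*, 2.08e-19 for *Per2* and 1.96e-16 for *Per3*. Both comparisons share the WT libraries.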

How the results depend on the processing

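The level and 24-hour difference tests of the 3 genes were repeated in 210 combinations of result and alternative, of which 207 kept their direction and their side of the threshold. The exceptions came from the fit with 1 mean per genotype, which put *Per2* in *Bmal1*-/- against WT at -0.039 (adjusted p = 0.828), *Per1* in the same comparison at -0.63 (adjusted p = 0.00182) and *Per1* in *Per1*,*2*-/- against *Bmal1*-/- at -0.42 (adjusted p = 0.0516). Without replicate C, *Per2* at CT20/CT44 in *Per1*,*2*-/- against WT was at -0.17 (adjusted p = 0.659), and it ranged up to 0.20 without D. *Per3* had no value under the study's filter of at least 1 count in every library, since 1 WT library held none. A replicate block left 6787 level calls in *Per1*,*2*-/- against WT and put *Per1* over time in *Per1*,*2*-/- at an adjusted p of 0.0488. The letters share only a number (mean r of deviations 0.01 for the same letter within a genotype).

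Counts over all genes moved more, in the order *Per1*,*2*-/-, *Bmal1*-/-, WT. The 24-hour calls were 214, 1 and 3985, the 16-hour calls 324, 1 and 9, and the 24-hour differences 2724 in *Per1*,*2*-/- against WT, 2048 in *Bmal1*-/- against WT and 17 between the mutants. The first day alone gave 291, 1 and 2272 24-hour calls and differences of 1468, 665 and 5. The second day alone gave 18, 5 and 2165 calls and differences of 1329, 887 and 0. The cosine model gave 15 calls in *Bmal1*-/- and 28 differences between the mutants, and DESeq2 gave 19 and 36. Removing a linear trend left 44 and 0 16-hour calls in the mutants. JTK_CYCLE gave 2 and 0 24-hour calls in the mutants and 55, 0 and 2 16-hour calls, and with the study's filter and threshold of 0.2 it gave 6 24-hour calls in *Per1*,*2*-/- and 411, 0 and 5 16-hour calls. Harmonic regression gave 2 and 0 24-hour calls in the mutants and 8, 0 and 0 16-hour calls. The cause was not tested.

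With 1 replicate left out, so with fewer libraries, 24-hour calls ranged from 43 to 107, 0 to 2 and 3017 to 3244, 16-hour calls from 76 to 230, 0 to 3 and 1 to 11, and calls of any change from 1092 to 1276, 40 to 142 and 1879 to 2328. The 24-hour differences ranged from 1957 to 2045, 1330 to 1533 and 0 to 7. The ratio of *Per3* to *Per1* in *Bmal1*-/- against WT ranged from -0.51 to -0.29, and its rhythm in *Per1*,*2*-/- from 0.33 to 0.47. Correlations in *Per1*,*2*-/- ranged from -0.53 to 0.16 for *Per1* and *Per2* and from -0.17 to 0.38 for *Per1* and *Per3*, with -0.17 without A and -0.12 without D. In *Bmal1*-/- they ranged from -0.69 (without C, adjusted p = 0.0137, permutation test) to -0.28 for *Per1* and *Per3* and from -0.28 to 0.0096 for *Per2* and *Per3*, and in WT from -0.049 to 0.16 for *Per1* and *Per3*.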
